A study of Bombyx mori with 12 samples.

Results

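Ovaries of the TBH and WT lines of the domestic silkworm, Bombyx mori, were compared at the pupal stage P2, gene by gene. The comparison took 6 of the 12 libraries of the study, 3 per line, and tested every gene whose deposited normalized value was at least 1 in at least 3 of these 6 libraries. This left 4528 of the 15745 listed genes, while 11217 were not tested, 5482 of them being listed at 0 in all 6 libraries. The study sequenced total RNA of ovaries at P2 and P4 to find ovarian targets of a high plasma protein concentration in a genetic model of hyperproteinemia. The labels give the lines only as WT and TBH, do not spell out TBH and name no locus, so no targeted gene could be checked. Per the treatment protocol, ovaries were dissected from 5 female pupae with n = 3. Whether a library pools pupae is not stated, so p-values measure only the spread between these libraries, which may be technical.

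The silkworm ovary grows its eggs during the pupal stage, when each oocyte takes up yolk proteins from the hemolymph, the insect blood, and follicle cells later build the eggshell around it. Vitellogenin, the storage proteins and the 30K lipoproteins are hemolymph proteins made mainly by the fat body, an organ with functions of liver and adipose tissue. Ecdysteroids, the moulting hormones, drive this development in pupae.

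Libraries of the 2 lines differed in how tightly they agreed. Across the tested genes, replicates correlated at 0.834 to 0.894 (Pearson, log2 values) within WT and at 0.912 to 0.929 within TBH, and the median SD of a gene was 0.66 log2 units in WT and 0.37 in TBH. The summed values ran from 468559 to 664134 and the genes above 0 from 6399 to 7772, with the lowest and the highest of each in WT. Transcripts of cytosolic ribosomal proteins made up 22.9%, 37.7% and 27.7% of the WT values and 30.8%, 30.9% and 32.5% of the TBH values, a difference without support in a two-sided exact permutation test (p = 0.7, where 3 against 3 allow no p under 0.1). WT replicate 2, with the highest ribosomal share and the fewest genes, stood apart from its group. WT replicate 1 lay at the other end, with the lowest ribosomal share and the most genes. Results are given without WT replicate 2 where that ends a call, and for a gene that passes only then. Of 11 listed ovarian and germ line genes, 3 were at 0 in all 6 libraries, and Mago nashi, a factor of germ plasm assembly in Drosophila, was at 0 in WT replicate 2 and between 12.3 and 68.1 in the other libraries. The most abundant were present in every library: nucleoplasmin isoform 2, a histone-binding protein known from Xenopus eggs, stood between 234 and 501, and VIG, the silkworm relative of a Drosophila RNA-interference factor, between 1695 and 2335.

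At P2, 88 of the 4528 tested genes differed between the lines (1.94%), 50 higher in TBH (1.1%) and 38 lower (0.839%), at a Benjamini-Hochberg adjusted p under 0.05 in limma. Their log2 changes, on the scale log2(value + 1), ran from 1.06 to 6.84 among the higher genes (median 2.48) and from -1.23 to -5.68 among the lower ones (median -2.60), against a median of 0.00 over all tested genes. In each of the 88 genes the 3 TBH libraries lay beyond the 3 WT libraries. The calls were made on these same libraries, so this separation is no further support for them. Over all tested genes TBH lay wholly above WT in 233 (5.15%) and wholly below in 195 (4.31%). Only 14 of the 88 carry a name or product, 9 higher and 5 lower, as 12.9% of tested genes do. A fit restricted to the 6 libraries called 27 genes (0.596%), of which 24 belong to the 88. Among the named genes that fit called GSTD3, a beta-hexosaminidase, vitellogenin and a U1 RNA, and 10 others lost their call there. With TBH replicate 1, 2 or 3 left out, the full fit called 31, 28 and 29 genes higher and 23, 24 and 25 lower.

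**Figure D1:**
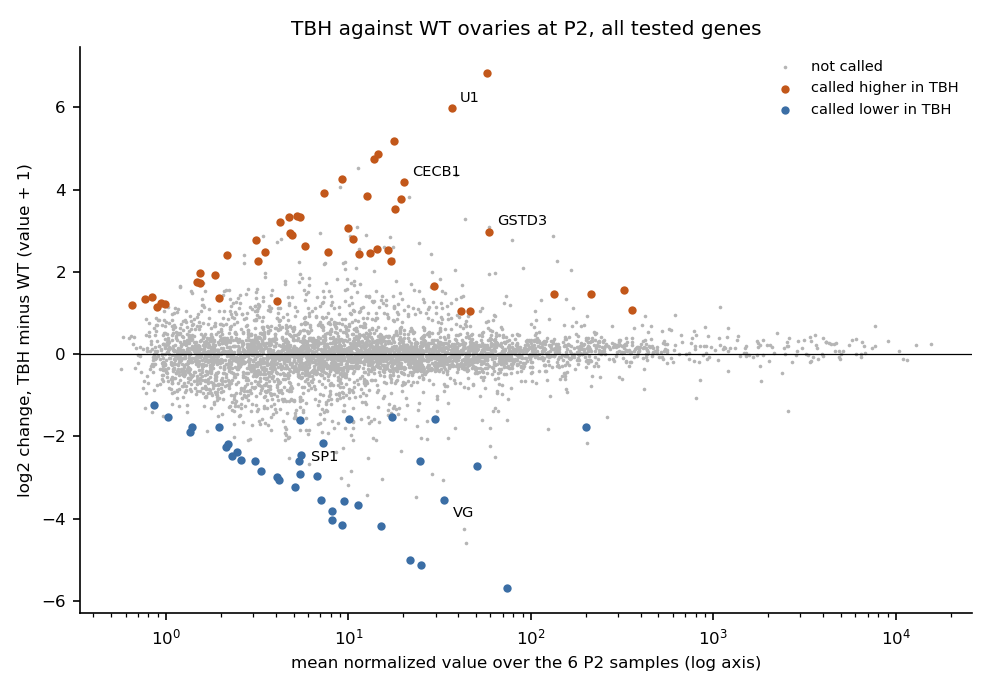
Log2 change of TBH against WT at P2 for each of the 4528 tested genes (vertical axis, on log2(value + 1)) against the mean normalized value over the 6 libraries (horizontal log axis). The 50 genes called higher are orange and the 38 called lower are blue. Most called genes have mean values under 100. Many of the very abundant genes lie close to 0, but the abundant IGF-like peptide gene IGFLP, not called, lies at -1.39.

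Enzymes and an enzyme subunit were among the named genes that rose. GSTD3 (BGIBMGA002211), a delta-class glutathione S-transferase that couples glutathione to reactive and foreign compounds, stood at 11.9, 15.8 and 10.2 in WT and at 101, 106 and 109 in TBH. The groups were far apart and the TBH libraries nearly equal, an 8.34-fold higher mean (log2 change 2.98 ± 0.36 SE, limma adjusted p = 0.0012). Of the other 6 tested detoxification genes, none passed; another delta-class transferase (BGIBMGA002222) stood at 90.7, 27.7 and 70.3 in WT and 56.4, 75.3 and 57.8 in TBH, with overlapping groups.

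A beta-hexosaminidase (BGIBMGA004194), which cuts terminal amino sugars from glycans, stood at 1.10, 0.97 and 0.33 in WT and at 23.1, 26.1 and 23.9 in TBH. This was the largest fold among the named genes with values above 0 in both lines, 30.5-fold (log2 change 3.84 ± 0.33 SE, limma adjusted p = 0.0001). FDL (BGIBMGA003990), the other hexosaminidase tested, stood at 2.59, 1.11 and 1.41 against 1.57, 2.82 and 0.35 and overlapped between the lines. The other 7 members of the lysosome and autophagy class did not pass.

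Cytochrome c oxidase polypeptide IV (BGIBMGA013680), a nuclear-encoded subunit of the last complex of the respiratory chain, stood at 125, 143 and 74.6 in WT and 272, 284 and 377 in TBH. Every TBH library lay well above the highest WT library, and the mean was 2.72-fold higher (log2 change 1.47 ± 0.24 SE, limma adjusted p = 0.0064, and 0.12 in the fit of the 6 libraries alone). The other 15 tested subunits of the respiratory chain and ATP synthase did not pass, and the median log2 change of the 16 was 0.19. An ATP synthase beta gene (BGIBMGA012549) stood at 562, 723 and 690.1 against 820.0, 879 and 907 (limma adjusted p = 0.65), whereas subunit 6 of the cytochrome b-c1 complex (BGIBMGA012857) stood at 57.9, 9.49 and 50.7 against 0, 23.0 and 0 (0.22).

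Uricase (BGIBMGA001333), which oxidises uric acid, the main nitrogen waste of insects, was called lower in TBH. It stood at 7.14, 9.46 and 9.34 in WT and at 1.66, 2.37 and 2.56 in TBH, with no overlap and a mean 3.94-fold lower (log2 change -1.60 ± 0.36 SE, limma adjusted p = 0.047). Its call lies at the threshold: it ended without any 1 of the 6 libraries and in the fit of the 6 alone (adjusted p = 0.31). The other 22 tested genes of amino acid and nucleotide metabolism did not pass the test.

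**Figure D2:**
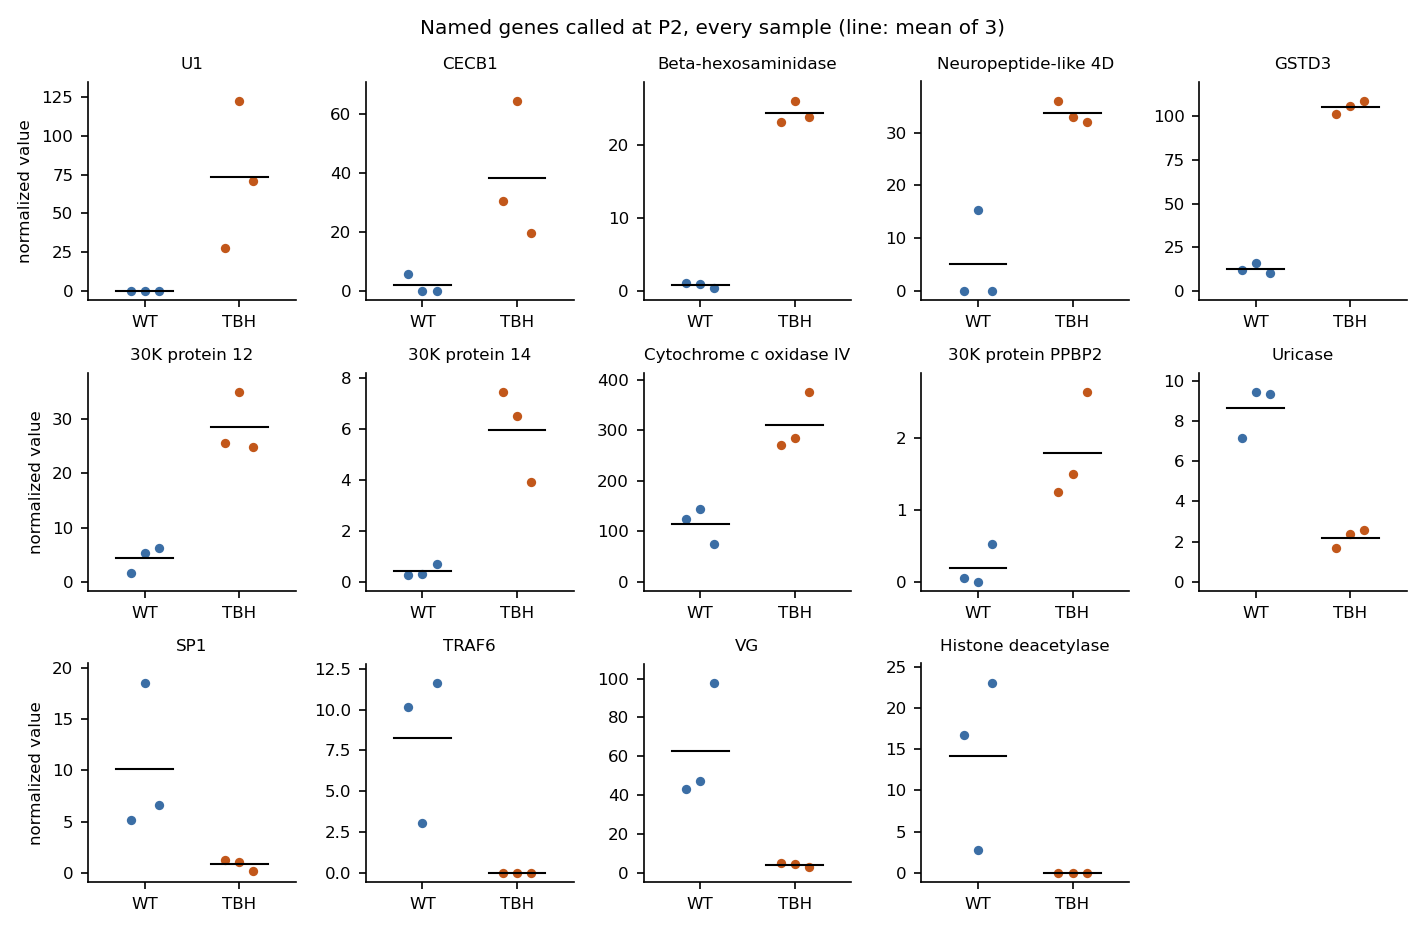
Normalized value of the 14 named genes called at P2 in each of the 3 WT (blue) and 3 TBH (orange) libraries; each panel has its own linear axis and the black lines are means of 3. In every panel the groups are apart, tightly in GSTD3 and the beta-hexosaminidase and with wide WT spread in SP1, VG and the histone deacetylase.

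Among yolk and eggshell genes, vitellogenin fell and no other tested member passed. VG (BGIBMGA004585), the yolk protein precursor, stood at 43.3, 47.3 and 98.0 in WT and at 5.22, 4.50 and 2.92 in TBH. The lowest WT library lay far above the highest TBH library, a mean 14.9-fold lower in TBH (log2 change -3.54 ± 0.54 SE, limma adjusted p = 0.0053, and 0.020 in the 6 libraries alone). VMP23 (BGIBMGA006755), a protein of the vitelline membrane of the egg, stood at 9.69, 13.3 and 8.99 against 3.16, 6.53 and 4.92, without overlap but short of the threshold (adjusted p = 0.26). The chorion regulators CBZ and C/EBP, transcription factors of eggshell genes, overlapped between the lines. Over the 4 tested of 7 listed genes, 0 were higher and 1 lower, with a median log2 change of -0.96. As 1.94% of all tested genes were called, this is no result about the class as a whole.

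Transcripts of hemolymph proteins went in both directions. Of 14 tested fat body and hemolymph genes, 3 rose and 1 fell, 9 were past an unadjusted p of 0.05 (as 317, or 7%, of all tested genes were), and the median log2 change was -0.12. All 20 listed members were above 0 in at least 1 library, and their summed value was 237 to 312 in WT and 181 to 362 in TBH, with overlap. In bulk RNA, a change in the share of adhering fat body or other cells and a change in the RNA per cell cannot be told apart. Vitellogenin is itself a fat body product, and the part of fat body RNA in its value was not tested.

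The 3 that rose are 30K proteins, small lipoproteins of the hemolymph. 30K protein 14 (BGIBMGA008164) stood at 0.29, 0.30 and 0.69 in WT and at 7.48, 6.51 and 3.92 in TBH (log2 change 2.26 ± 0.35 SE, limma adjusted p = 0.0055, and 0.088 in the 6 libraries alone). 30K protein 12 (BGIBMGA010876) stood at 1.72, 5.34 and 6.29 against 25.7, 35.1 and 24.8 (2.54 ± 0.52, adjusted p = 0.029). 30K protein 19 (BGIBMGA008165, also named PPBP2) stood at 0.05, 0 and 0.52 against 1.24, 1.49 and 2.64 (1.22 ± 0.28, adjusted p = 0.047). All TBH libraries were above all WT libraries in each, but protein 19 stayed low throughout. The calls of proteins 12 and 19 ended without TBH replicate 1, 2 or 3 or WT replicate 1 (protein 19 also without WT replicate 2). Proteins 14 and 19 have consecutive gene ID numbers, and so do protein 12 and the unnamed genes BGIBMGA010877 and BGIBMGA010878, which rose too, from 0.54, 2.42 and 3.43 to 14.9, 22.7 and 19.7 and from 0.27, 0.34 and 2.45 to 6.35, 11.2 and 14.3 (limma adjusted p = 0.016 and 0.028). These 2 unnamed genes were picked out after their values were seen. In the 6 libraries alone their limma adjusted p was 0.093 and 0.15. Both calls ended without WT replicate 1, TBH replicate 2 or TBH replicate 3 (BGIBMGA010878 also without WT replicate 2). Family members with similar sequence may have shared reads, so the level of each single 30K gene is uncertain.

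The other tested 30K genes did not pass. PP-BP (BGIBMGA010168, 30K protein 13) stood at 0.15, 0.84 and 0.91 in WT and at 2.11, 2.38 and 1.03 in TBH, with TBH wholly above WT (log2 change 0.80 ± 0.30 SE, limma adjusted p = 0.46). Grouped after their values were seen, the 5 tested 30K genes with ID numbers between BGIBMGA004394 and BGIBMGA004399 had log2 changes from -0.17 to -1.58, and none passed. The lipoprotein LP (BGIBMGA004394) stood at 25.6, 76.0 and 35.0 against 17.4, 14.3 and 13.9, and LP-C19 (BGIBMGA004396) at 11.3, 37.2 and 8.05 against 5.33, 3.49 and 4.64 (limma adjusted p = 0.27 and 0.26). TBH lay below WT in both, and WT replicate 2, the library that stood apart, was the highest of all 6 in each of the 5 genes. The member with the highest values, named only 30kDa protein (BGIBMGA004454), stood at 232, 55.3 and 134 against 225, 100.4 and 84.6, with full overlap.

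SP1 (BGIBMGA011266), a storage protein that female larvae and pupae hold in the hemolymph, was the member that fell. It stood at 5.12, 18.6 and 6.58 in WT and at 1.26, 1.07 and 0.20 in TBH (log2 change -2.45 ± 0.44 SE, limma adjusted p = 0.012). All 3 TBH libraries were below every WT library; the adjusted p was 0.21 in the 6 libraries alone, and the call ended without TBH replicate 3. SP2 (BGIBMGA009028), another storage protein, overlapped between the lines. The paralytic peptide precursor BMPP (BGIBMGA014551), an insect cytokine, stood at 19.8, 35.1 and 21.7 against 58.2, 49.6 and 34.4, with 1 TBH library inside the WT range (adjusted p = 0.89).

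**Figure D3:**
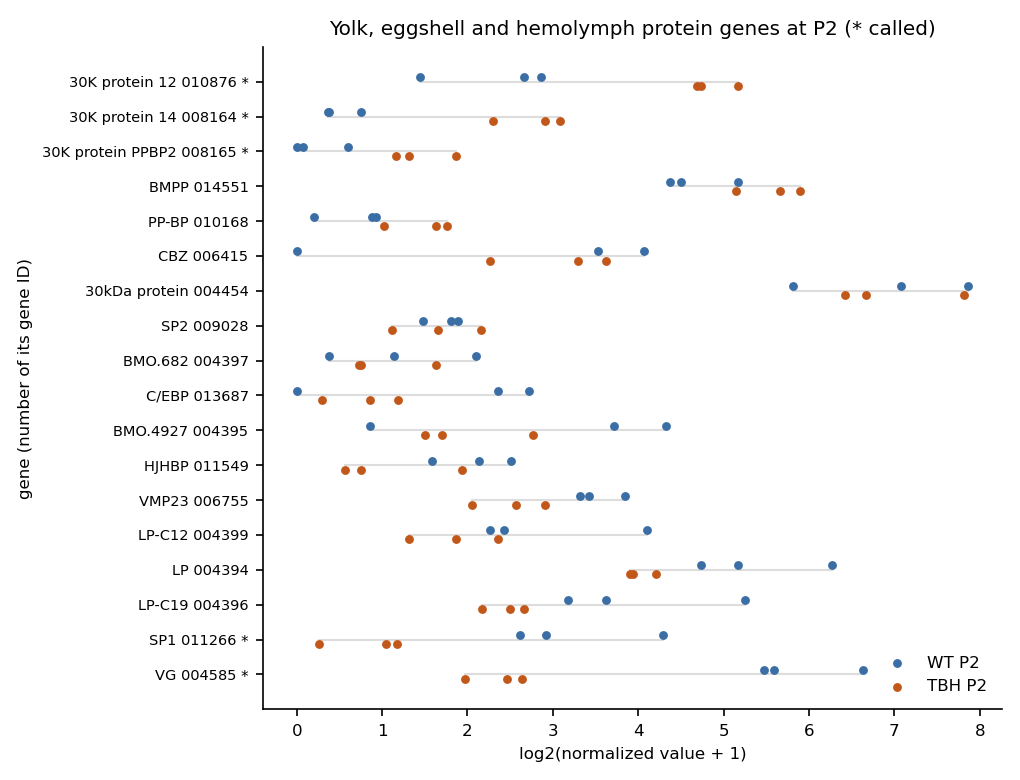
log2(normalized value + 1) of the 18 tested yolk, eggshell, fat body and hemolymph genes in each WT (blue) and TBH (orange) library at P2, ordered by log2 change; asterisks mark the 5 called genes. TBH lies to the right for 30K proteins 12, 14 and 19 (PPBP2) and to the left for VG and SP1, while the most abundant 30kDa protein overlaps.

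Of 10 tested antimicrobial and recognition genes, 1 rose and none fell, with a median log2 change of 0.78. With 1.94% of all tested genes called, 1 call in a list of this size is no result about the class. Cecropin B (CECB1, BGIBMGA000037), a secreted peptide that disrupts bacterial membranes, stood at 5.87, 0 and 0 in WT and at 30.5, 64.4 and 19.5 in TBH. The lowest TBH library was above the only WT library with a value (log2 change 4.19 ± 0.70 SE, limma adjusted p = 0.0075, and 0.11 in the 6 libraries alone). Cecropin A (CECA, BGIBMGA006280) stood at 0, 7.79 and 0 against 30.5, 0 and 19.5, and its values equal those of cecropin B in TBH replicates 1 and 3. Reads of near-identical cecropin genes may have been split between them, so the level of either is uncertain. The remaining members overlapped between the lines: cecropin D (BGIBMGA000017) stood at 14.2, 18.8 and 28.7 against 78.9, 39.4 and 15.5, and the recognition protein PGRP-S1 at 406, 727 and 516 against 592, 615 and 336.

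TRAF6 (BGIBMGA001290), an adaptor that passes on signals of immune receptors, was listed at 0 in all 3 TBH libraries and stood at 10.2, 3.06 and 11.7 in WT (limma adjusted p = 0.015). The call ended without any 1 library except WT replicate 2. The other 11 tested genes of immune and cell death signalling did not pass. A histone deacetylase (BGIBMGA011747), an enzyme that removes acetyl groups from histones, was also listed at 0 in all 3 TBH libraries and stood at 16.7, 2.82 and 23.1 in WT (limma adjusted p = 0.0058, and 0.11 in the 6 libraries alone). Another histone deacetylase (BGIBMGA013166) stood at 18.9, 9.87 and 15.6 against 11.7, 19.0 and 16.4, within 1 range. Of 50 cytosolic ribosomal protein genes, which every cell uses, 3 are listed at 0 in all 6 libraries. Whether a 0 in 1 line is a failed estimate was not tested, and no fold is given against it.

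Neuropeptide-like 4D (BGIBMGA011762), a small secreted peptide of a repeated family, stood at 0, 15.4 and 0 in WT and 36.1, 33.0 and 32.0 in TBH (limma adjusted p = 0.045). The only WT library with a value was replicate 2, and the call ended without any 1 of the other 5 libraries. The other 11 tested neuropeptide and synaptic genes did not pass. A spliceosomal U1 RNA (ENSRNA022710950), which recognises the start of introns, was listed at 0 in all 3 WT libraries and stood at 27.8, 123 and 70.6 in TBH (limma adjusted p = 0.022). Its call ended without any 1 library except TBH replicate 1. Another copy (ENSRNA022711394) was likewise at 0 in WT and at 26.8, 23.6 and 17.0 in TBH (adjusted p = 0.12), but the other 3 tested U1 copies overlapped. Copies of U1 are near identical and total RNA with unstated selection was sequenced, so these levels are uncertain.

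None of the 8 tested genes of the ecdysteroid and juvenile hormone class passed, which also holds the insulin-related IGFLP and INR. Their median log2 change was -0.22, with 4 above 0 and 4 below. The IGF-like peptide IGFLP (BGIBMGA012305), an insulin-related growth factor of pupae, stood at 2381, 6451 and 2424 in WT and at 1722, 1531 and 782 in TBH. Every TBH library was below every WT library, but with the WT spread the adjusted p was 0.33 (log2 change -1.39 ± 0.48 SE). A pair of cytochrome P450 enzymes of ecdysteroid metabolism lay wholly above WT in TBH: CYP306A1, which acts in ecdysteroid synthesis, at 11.7, 10.7 and 12.4 against 7.33, 8.54 and 7.49, and CYP18A1, which inactivates ecdysteroids, at 5.89, 5.95 and 5.14 against 3.73, 3.01 and 4.84. DIB (CYP302A1), another enzyme of ecdysteroid synthesis, stood at 4.22, 1.03 and 1.61 against 6.18, 3.94 and 4.23. Limma adjusted p for these 3 was 0.93, 1.0 and 0.80, and TBH lay wholly above WT in 5.15% of all tested genes.

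Several housekeeping classes held no called gene; with 1.94% of all tested genes called, that is no result about classes of this size. None of the 44 tested cytosolic ribosomal protein genes passed, and their median log2 change was 0.24. It was 0.06 without WT replicate 1, 0.58 without WT replicate 2 and 0.06 without WT replicate 3. The median of all tested genes then moved to 0.20, -0.22 and -0.02. The tested gene with the highest mean value, ribosomal protein S3a (BGIBMGA011416), stood at 10101, 23862 and 10766 in WT and at 15807, 16139 and 17376 in TBH. Elongation factor 1-alpha (EF-1A) stood at 7843, 14742 and 14429.6 against 10393, 10736 and 11170.0. In both genes the TBH libraries lay inside the WT range. Likewise none passed of 25 translation factors, 32 chaperones and folding enzymes, 28 proteasome and ubiquitin genes (median log2 change 0.00), 23 genes of ER translocation and vesicle traffic, 12 antioxidant genes and 14 genes of the cell cycle and DNA replication.

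Single members of these and other classes had separate groups at P2 but fell short of the threshold. Borealin (BGIBMGA009153), a subunit of the complex that steers chromosomes in cell division, stood at 26.3, 27.3 and 31.1 in WT and at 12.4, 15.8 and 11.0 in TBH (limma adjusted p = 0.072). The CCT beta subunit (BGIBMGA001206), part of a folding machine for cytoskeletal proteins, stood at 31.6, 2.77 and 18.3 against 1.19, 0.52 and 0.35 (adjusted p = 0.072, 0.0049 without WT replicate 2 and 0.29 in the 6 libraries alone). At P4 it stood at 19.9, 22.2 and 9.06 against 0, 0.42 and 2.10 and was called lower (adjusted p = 0.043). A histone H2A gene (BGIBMGA009649) stood at 45.7, 24.6 and 24.0 against 60.1, 61.4 and 58.2 (adjusted p = 0.11). Histone copies may share reads.

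Markers of cuticle, hemocytes, muscle and silk gland held no called gene, while those of fat body and of neuropeptides held 4 and 1, as given above. With 1.94% of all tested genes called, no call or 1 call in lists of this size is no result about these tissues. Of 41 tested cuticle and trachea genes, none passed and the median log2 change was -0.19; their summed value was 5286 to 17011 in WT, highest in replicate 2, and 7904 to 8747 in TBH. The cuticle protein BMORCPR24 (BGIBMGA000369) stood at 2.84, 1.81 and 1.11 in WT and was listed at 0 in all 3 TBH libraries (limma adjusted p = 0.069), and BMORCPR34 (BGIBMGA000336) stood at 6.87, 6.08 and 10.9 against 2.01, 2.07 and 2.62 (0.19). Hemocyte genes (2 tested), muscle genes (3) and silk gland genes (5) had no call, and their summed values overlapped between the lines. The prophenoloxidase PRO-PO2 (BGIBMGA013115), the melanin-forming enzyme precursor of hemocytes, stood at 26.1, 23.2 and 54.9 against 50.6, 65.0 and 44.6. The part of these tissues in the called genes was not tested.

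**Figure D4:**
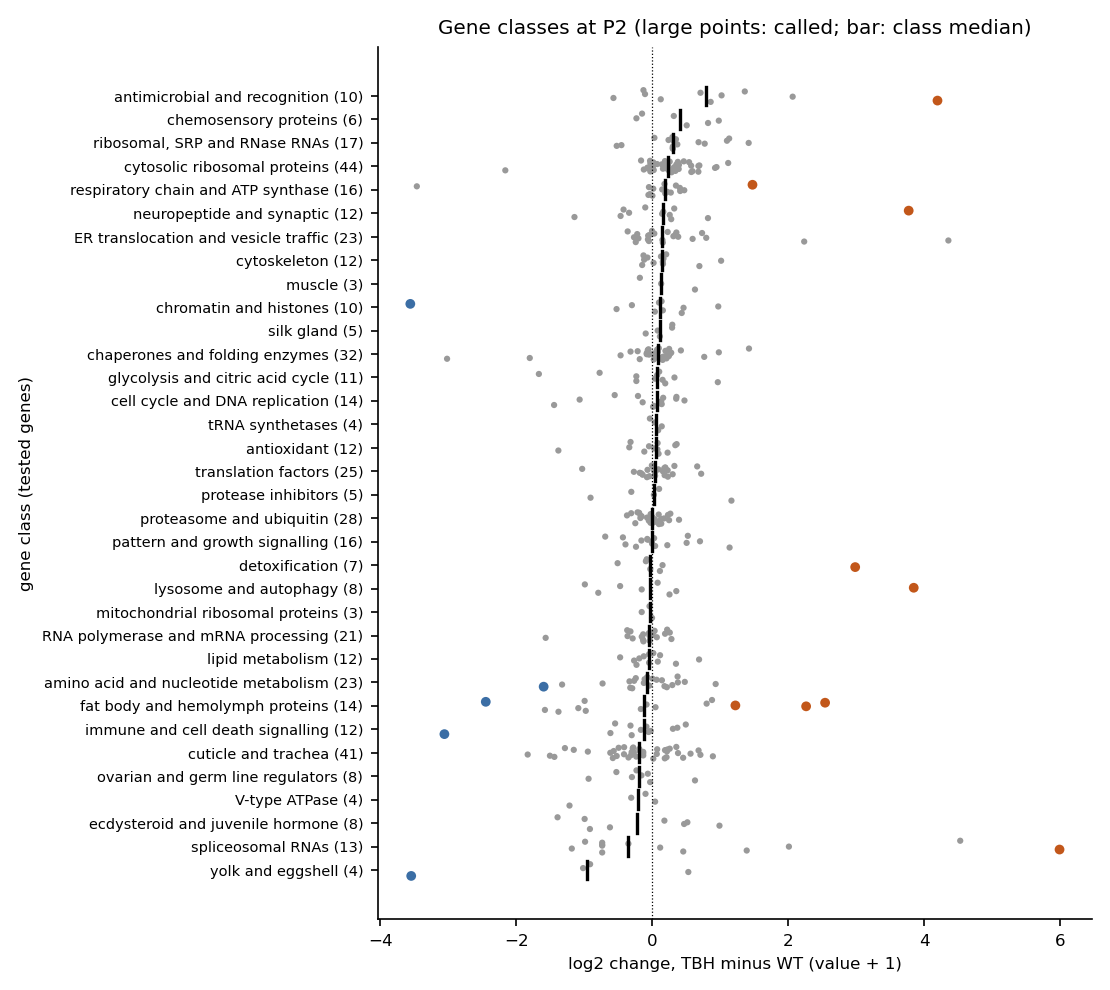
Log2 change of TBH against WT at P2 of each tested gene, by gene class with at least 3 tested genes (number in brackets); black bars are class medians, the dotted line is the median of all genes, and large points are called genes (orange higher, blue lower). Class medians lie between -0.96 (yolk and eggshell) and 0.78 (antimicrobial and recognition), and each class holds at most 4 called genes.

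Among called genes, 29 were listed at 0 in all 3 libraries of a line. WT was at 0 for 14 genes that rose, with TBH means of 1.31 to 114.6 (median 12.1). TBH was at 0 for 15 genes that fell, with WT means of 2.71 to 49.9 (median 8.12). Over all tested genes, 20 were at 0 in WT and at least 1 in every TBH library, and 18 showed the reverse, of which 14 and 15 were called. With the filter used, a gene at 0 in a whole line is tested only if all 3 libraries of the other line reach 1, so its groups are apart by construction. The unnamed gene BGIBMGA000885 was the extreme, at 0 in WT and at 99.0, 127 and 117 in TBH (limma adjusted p = 2.1e-07, and 0.00093 in the 6 libraries alone). BGIBMGA000885 was at 0 in all WT libraries at P4 too, so its spread in the full fit came mainly from TBH libraries. The neighbour of BGIBMGA000885 by ID number, BGIBMGA000884, picked out after its values were seen, rose as well, from 136, 232 and 130.3 to 469, 469 and 499 (adjusted p = 0.0042). Of the lower genes without a name, BGIBMGA001595 fell evenly, from 276, 394 and 259.8 to 93.2, 81.1 and 91.4, a mean 3.50-fold lower (adjusted p = 0.0010).

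The P4 libraries, with controls of their own but the same estimate of spread, allowed the 88 genes to be compared once more. At P4, 84 of the 4528 genes were called (1.86%), and the median log2 change of all 4528 was 0.19. Of the 88, 72 had the same sign, 42 of the 50 higher and 30 of the 38 lower genes. A gene without any change at P4 was taken as not having the same sign. The share of all tested genes with the same sign at both stages was not counted. Called the same way were 37, 23 higher and 14 lower, which is 42.0% of the P2 calls and 44.0% of the P4 calls. TBH lay wholly on the same side of WT at P4 in 36 of the 50 higher and 20 of the 38 lower genes, while over all 4528 genes TBH lay wholly above WT at P4 in 678 (15%) and wholly below in 274 (6.05%). BGIBMGA008306, named after its values were seen, was the 1 gene called the other way: it was at 0 in WT and at 1.52, 2.32 and 1.17 in TBH at P2, and at 2.30, 1.20 and 0.98 in WT and 0 in TBH at P4. Of the 14 genes at 0 in WT at P2 that rose, 7 were again at 0 in all WT libraries and above 0 in all TBH libraries at P4. Among the 15 genes at 0 in TBH at P2 that fell, 4 showed the reverse at P4, and 2 were at 0 in all 6 P4 libraries.

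Of the 14 named genes, 4 were called the same way at P4. GSTD3 stood at 7.59, 3.88 and 1.79 in WT and 139.7, 133 and 168 in TBH at P4, and the beta-hexosaminidase at 0.59, 1.23 and 1.31 against 31.7, 33.0 and 44.5. Cecropin B stood at 0 in all WT libraries against 15.0, 13.4 and 8.80, and the histone deacetylase at 5.74, 5.02 and 6.07 against 0 in all TBH libraries. Limma adjusted p at P4 was 3.4e-05, 4.5e-05, 0.018 and 0.033 for these 4. Cytochrome c oxidase polypeptide IV stood at 191, 197 and 208 against 381, 410.1 and 402 without overlap, short of the threshold (adjusted p = 0.063). TRAF6 stood at 3.36, 5.57 and 7.9 in WT against 0, 0 and 2.29 in TBH, also without overlap and short of the threshold (limma adjusted p = 0.10).

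None of the called yolk and hemolymph genes was called again at P4. VG stood at 2.06, 10.9 and 2.10 in WT and at 1.91, 3.53 and 3.36 in TBH at P4, with overlap (limma adjusted p = 0.94). SP1 and uricase were under 2 in every P4 library, and 30K proteins 14 and 19 likewise, while neuropeptide-like 4D was at 0 in all 6. Values this low leave little to compare. 30K protein 14 stood at 0, 0 and 0.05 in WT against 1.37, 0.27 and 0.10 in TBH, without overlap, while 30K proteins 12 and 19 overlapped. For VG, SP1, uricase and the 3 30K proteins, a difference of the line effect between the stages was not called (adjusted p of the interaction 0.23 or more). That test called 10 of the 4528 genes, 6 of them among the 88.

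**Figure D5:**
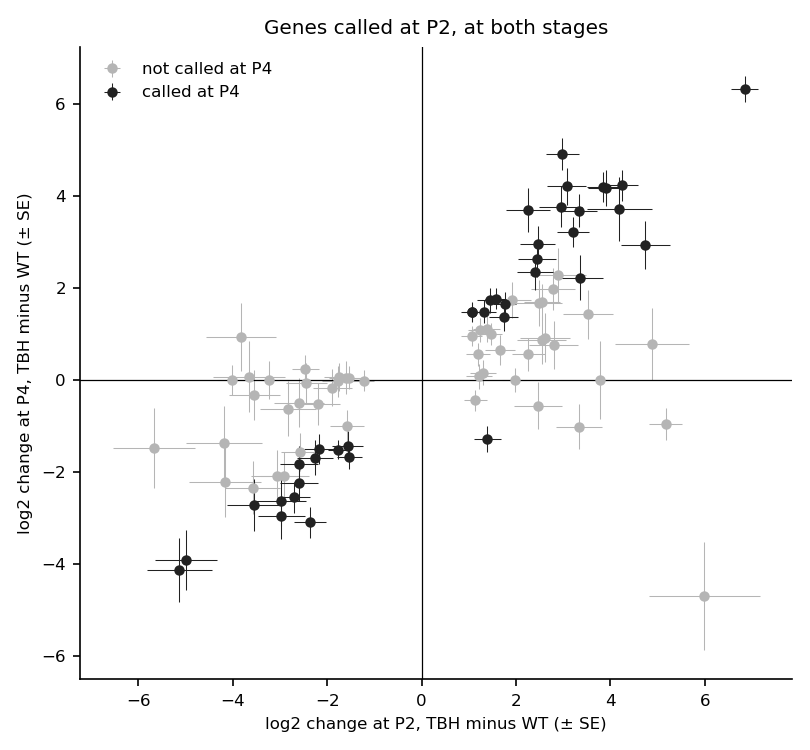
Log2 change of TBH against WT at P4 (vertical axis) against that at P2 (horizontal axis) for the 88 genes called at P2, with standard errors as bars; black genes are also called at P4, grey genes are not. The 37 genes called the same way lie in the lower left and upper right, and 1 black gene lies in the lower right.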

How the data were processed

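The deposited table gives, per gene and library, a normalized expression signal with 2 decimals whose unit is not named; per the submitters' processing notes, Cufflinks and DESeq2 were used, without versions or roles. For the aligner, genome build, annotation and read depth, nothing was given in the sources used here. No counting interval can therefore be stated. Libraries were grouped by their titles. The gene classes were set by name and product and revised after the table was read, and members, classes and tests were chosen with earlier results of these data known. Gene names come from the deposited table, since 0 of its IDs matched the reference table.

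Values were taken as log2(value + 1), which understates the change of low genes, for genes with at least 1 in at least 3 of the 6 P2 libraries. A count model was foreseen only for raw counts, which these are not, so limma 3.58.1 in R 4.3.3 was used (lmFit, contrasts.fit and eBayes with trend, 1 mean per group over all 12 libraries). The Benjamini-Hochberg adjustment ran over the 4528 genes, and genes under 0.05 were called. SE is the model's standard error, from a spread per gene shared by all groups. The median SD was 0.66 in WT P2, 0.37 in TBH P2, 0.29 in WT P4 and 0.48 in TBH P4. A gene at 0 in a whole group adds no spread there, which lowers its SE. A fold is the ratio of group means. Shares were compared by exact permutation (scipy 1.17.1). The script was tested on simulated data. The text names every called gene with an informative name, per class up to 3 members of smallest p and 2 of highest mean as values, and at most 2 unnamed genes per direction; others are marked as chosen after their values were seen. The alternatives were other normalizations, filters, pseudocounts, library weights, a replicate block, the 6 libraries alone and each library left out. One gene is not reported here.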

Additional observations from a re-analysis of the deposited data

Results flagged for a closer look

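The difference between TBH and WT changed between P2 and P4 in 4 of the genes named here, by the interaction term of the limma fit. U1 (ENSRNA022710950) was at 0 in WT and high in TBH at P2, but stood at 201, 109 and 19.1 in WT and at 0, 0 and 24.1 in TBH at P4, so that its effect at P4 minus that at P2 was -10.69 on the log2 scale (limma adjusted p = 0.022). The unnamed gene BGIBMGA008709 was at 0 in WT and at 37.1, 40.0 and 29.1 in TBH at P2, and at 7.32, 4.51 and 7.18 in WT and 4.06, 1.78 and 2.64 in TBH at P4 (difference of effects -6.131, adjusted p = 0.00028). The unnamed gene BGIBMGA003132 stood at 22.5, 16.9 and 9.23 in WT and at 0 in TBH at P2 and was at 0 in all 6 P4 libraries (4.025, adjusted p = 0.0028). With every other group at 0, the spread behind this p came mainly from its WT P2 libraries. BGIBMGA008306, called higher at P2 and lower at P4 with values of at most 2.32, had a difference of -2.676 (adjusted p = 0.019), and its P2 call ended without any 1 of the P2 libraries except TBH replicate 3. U1 copies are near identical, and whether a 0 is a failed estimate was not tested.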

How the results depend on the processing

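The 50 higher and 38 lower genes, and the 37 P2 calls repeated at P4, changed most with fewer libraries or genes. With the 6 P2 libraries alone, 18 were higher and 9 lower. With a mean of at least 10, 20 were higher, 10 lower and 21 repeated; with genes above 0 in all 6 libraries, 23, 9 and 20; these filters test fewer genes. A pseudocount of 0.1 gave 32 higher and 25 lower, and library weights 61 repeated. Without 1 of the P2 libraries, 28 to 44 were higher, 23 to 34 lower and 23 to 41 repeated (lowest without TBH P2 replicate 2 for higher and repeated, and without TBH P2 replicate 1 for lower), and without 1 of the P4 libraries 25 to 31 were repeated. Leaving out WT P2 replicate 2 and TBH P4 replicate 3, a setting added after the data were seen, gave 67 higher and 58 lower. The cause of these shifts was not tested. Quantile normalization, equal totals, no filter, the filter over 12 libraries and the fit without trend stayed within 1.5 times. The replicate numbers did not pair the libraries (correlations of same-numbered deviations -0.006, -0.20 and 0.081); with a replicate block, 37 were higher, 37 lower and 28 repeated. Kept without each of the 6 P2 libraries in turn were 26 of the 50 and 19 of the 38. Of 308 values of the 18 called genes named by the rule, 74 missed the threshold and 0 reversed. Depth in reads is unknown, and 925 of the tested genes were at 0 in at least 1 library, which limits what low genes can show.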
